A study of Mus musculus with 4 samples.

Results

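The genes described here encode the proteins that select and assemble splice sites on pre-mRNA. They are 53 of the 21926 genes in the count tables and were taken by symbol. The set holds 11 SR protein genes (Srsf), 20 hnRNP genes (Hnrnp), 9 genes for the SF3A and SF3B complexes (Sf3a and Sf3b), 12 genes for proteins of the small nuclear ribonucleoproteins (Snrp) and Alyref, which encodes an mRNA export adaptor. Their mRNA was followed in single-cell RNA-seq of unsorted thymus cells from 1 WT mouse (Eif4g2 flox/flox, no Cre) and 1 Eif4g2 cKO mouse (CD4Cre with Eif4g2 flox/flox). Both mice are labelled as 5-week-old females and as the same batch, and both carry the floxed alleles. Cre is driven by the CD4 promoter, so deletion depends on the stage at which a thymocyte turns that promoter on. eIF4G2, the product of the deleted gene, is a translation factor related to the scaffold protein eIF4G1.

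Splicing removes introns through the stepwise assembly of small nuclear ribonucleoproteins on the pre-mRNA. The Sm proteins form the core ring of these particles, the SF3A and SF3B complexes help the U2 particle to hold the branch site, and SR and hnRNP proteins bind exons and introns and often push splice site choice in opposite directions. Alyref is loaded on spliced mRNA as part of the TREX complex and hands it to the nuclear export receptor. Thymocytes pass from double-negative (DN) cells through a proliferative burst to small double-positive (DP) cells, and after selection to single-positive (SP) cells, and hnRNP L, hnRNP LL and SR proteins are known for their part in the exon choice of the Ptprc (CD45) transcript along this path.

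The WT library held 6014 cells with 18355050 UMIs (unique molecular identifiers, 1 per captured mRNA molecule) and the Eif4g2 cKO library 4335 cells with 18056277 UMIs. The medians were 1732.5 and 2140 UMIs per cell. Because each genotype was 1 mouse and 1 library, no test between genotypes was possible. Intervals are exact 95% intervals that cover counting error only. The WT library went against its female label. The Y-linked genes Eif2s3y and Kdm5d had 1048 and 429 UMIs in the WT library, and both had 0 in the Eif4g2 cKO library, which allows a level of up to 0.204 CPM each. Of 2 other Y-linked genes, Uty had 1065 and 1 UMIs and Ddx3y 1427 and 510 UMIs. Genotype, sex and mouse therefore cannot be told apart in any ratio below, and no value is left without the WT library. The 2 libraries shared 1055 cell names, which are index names and not barcode sequences. Eif4g2 itself had 223 CPM in WT against 274 CPM in Eif4g2 cKO (CPM, the UMIs of a gene scaled to a common library total). It had 261 and 521 CPM in DP-like cells, 214 and 371 CPM in post-selection cells, 142 and 197 CPM in DN-like cells, and 218 and 186 CPM in Cycling-like cells. The library labelled Eif4g2 cKO thus held more Eif4g2 tags in 3 of these 4 classes. Counts are of 3′ tags, and whether these lie in the deleted part is not given in the sources used here, so they give no check of the deletion. Haemoglobin and other erythroid marker mRNA made up 13798 CPM of the WT library and 844 CPM of the Eif4g2 cKO library.

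Cells were clustered without the 53 genes, Eif4g2 or the other splicing genes described below. Classes were named from marker lists. DN-like cells numbered 97 in WT and 125 in Eif4g2 cKO, Cycling-like cells 981 and 1302, DP-like cells 3381 and 2122, Early post-selection-like cells 715 and 531, and Mature SP-like cells 678 and 212. The last 2 classes together are called post-selection cells. All 8 DP markers were raised in both DP-like clusters, and Ptcra, Il2ra and Notch3 were among the 6 markers raised in the DN-like cluster. The DP-like class consisted of 1 cluster with 3168 WT and 187 Eif4g2 cKO cells (cluster 0) and 1 with 213 WT and 1935 Eif4g2 cKO cells (cluster 1). Cycling-like cells were divided in a similar way, with 60 WT and 827 Eif4g2 cKO cells in cluster 4, 762 and 79 in cluster 5, and 159 and 396 in cluster 6.

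The 53 genes had a higher summed level in Eif4g2 cKO than in WT cells in each of the 5 T-lineage classes above. A gene was called higher or lower when its ratio of CPM passed 0.5 on the log2 scale with at least 50 UMIs over both libraries, and 51 of the 53 genes reached that depth in every class. Srsf12 (17 UMIs in WT and 2 in Eif4g2 cKO) and Snrpn (1 and 0) did not, and no ratio is given for them. In DP-like cells 10 of 51 genes were higher and 0 were lower, against 8.36% of all 8880 genes higher and 29.5% lower. The median log2 ratio of the 51 was 0.24, against -0.19 for all genes. Summed over the 53 genes, the level was 12437 CPM in WT against 14909 CPM in Eif4g2 cKO DP-like cells, a log2 ratio of 0.26 (0.25 to 0.28). Since most genes had a ratio below 0, the share called depends on the zero point: with ratios centred on the median of all genes, 22 of 51 were higher in DP-like cells. The share of all genes at that zero point is not given, so the 8.36% above cannot be set beside this count.

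Post-selection cells gave a similar count, with 10 genes higher and 1 lower of 51, against 8.59% and 31.5% of all genes. Their summed log2 ratio was 0.25 (0.22 to 0.27), from 12588 to 14918 CPM. Within this class, 8 were higher and 2 lower in Early post-selection-like cells (7.89% and 34.5% of all genes), and 7 higher and 4 lower in Mature SP-like cells (8.42% and 37% of all genes). Mature SP markers were lower in the Eif4g2 cKO post-selection cells, at 652 CPM in sum against 1407 CPM in WT, with 7 of 7 past the threshold, and the part of this in the values was not tested.

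DN-like cells, in which CD4-driven Cre is expected to have acted least, also showed 10 genes higher and 2 lower of 51, against 10.1% and 26.3% of all genes. Their summed log2 ratio was 0.28 (0.24 to 0.32), from 12828 to 15556 CPM, so that it was as large as in DP-like cells. The DN markers also differed there, at 1469 CPM in sum in WT and 1072 CPM in Eif4g2 cKO. Of 6 such markers 1 was higher and 4 were lower, and the part of this in the values was not tested. Dissociation and stress genes moved with genotype in these cells, with 400 CPM in sum in WT and 187 CPM in Eif4g2 cKO and 2 of 2 lower. Their sums were 99.5 and 65.8 CPM in Cycling-like cells (3 of 4 lower), 403 and 280 CPM in post-selection cells (2 of 4 lower) and 135 and 151 CPM in DP-like cells (1 of 4 lower), and their part in the values was not tested. In Cycling-like cells the summed level was highest in both genotypes and the ratio lower than in DN-like, DP-like and post-selection cells, at 19635 CPM in WT against 21776 CPM in Eif4g2 cKO (log2 ratio 0.15, 0.14 to 0.16), with 3 genes higher and 1 lower (3.18% and 35.4% of all genes). Over whole libraries, where a difference in cell types and in RNA per cell cannot be told apart, 13 of 51 were higher and 0 lower, against 5.56% and 40.4% of all genes, with a summed log2 ratio of 0.34.

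**Figure D1:**
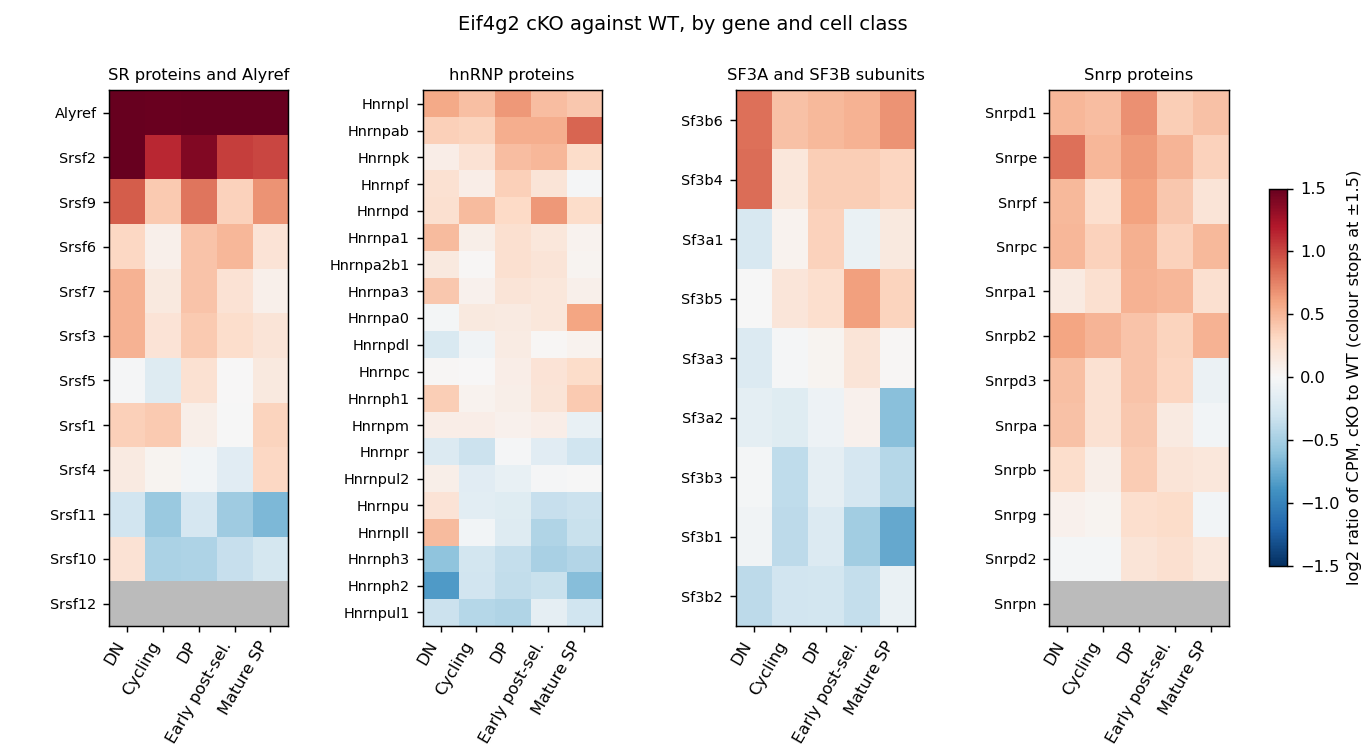
Log2 ratio of CPM, Eif4g2 cKO to WT, for each of the 53 genes (vertical) in 5 cell classes (horizontal), ordered within each family by the ratio in DP-like cells; red is higher in Eif4g2 cKO, blue lower, grey under 50 UMIs. Alyref and Srsf2 are red in every column, while Srsf10, Srsf11, Hnrnph2, Hnrnph3, Sf3b1 and Sf3b2 are blue in most.

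Alyref had the highest ratio of the set in each of the 5 classes. In DP-like cells it had 22.8 CPM in WT (122 UMIs) and 70.9 CPM in Eif4g2 cKO (249 UMIs), a log2 ratio of 1.63 (1.31 to 1.96). The corresponding levels were 31.2 and 120 CPM in DN-like cells (1.95, 1.25 to 2.71), 87.1 and 243 CPM in Cycling-like cells (1.48, 1.35 to 1.6), and 23.9 and 82.5 CPM in post-selection cells (1.79, 1.43 to 2.15). The CPM intervals of the libraries, which cover counting error only, did not overlap in any of these classes. The share of all genes without overlap is not given. In DP-like cells the ratio intervals of 31 of the 51 genes lay above 0 and those of 8 below. The level of Alyref in Eif4g2 cKO DP-like cells came near that of dividing WT cells. The share of cells with a UMI restates the same counts, and its intervals treat the cells of 1 mouse as independent. In DP-like cells, 3.34% of those from WT and 10.7% of those from Eif4g2 cKO had a UMI of Alyref, and the shares were 2.51% (2.01 to 3.10) and 7.40% (6.32 to 8.60) once every cell was thinned to 1000 UMIs. No class in these libraries is expected to lack this gene, so no background share can be set beside these values.

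Srsf2, a founding SR protein that binds exonic enhancers, followed the same pattern. It had 76.4 CPM in WT against 201 CPM in Eif4g2 cKO DP-like cells (1.39, 1.22 to 1.57), 93.7 and 276 CPM in DN-like cells (1.56, 1.15 to 1.99), 227 and 496 CPM in Cycling-like cells (1.13, 1.05 to 1.21), and 88.5 and 193 CPM in post-selection cells (1.12, 0.92 to 1.33). The CPM intervals of the libraries did not overlap in any of these classes, with the same limit as for Alyref. Exons of Srsf2 lie opposite exons of Mettl23 and Mfsd11 on the other strand, and whether counting used the strand is not given in the sources used here. Mettl23 had 119 CPM in WT against 130 CPM in Eif4g2 cKO DP-like cells, and Mfsd11 11.8 and 16.2 CPM. In DN-like cells Mettl23 was itself higher, at 64.0 and 116 CPM (0.85, 0.32 to 1.41). The part of these 2 genes in the values of Srsf2 was not tested in any class. In all, 10 genes of the set overlap exons of a counted gene on the other strand, Hnrnpab, Hnrnph3 and Snrpf among them. Another 4, with Snrpa1 among them, overlap one on the same strand, and the part of these overlaps was not tested either.

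Besides Alyref and Srsf2, only Srsf9 and Hnrnpl passed the threshold in DN-like, DP-like and post-selection cells alike. These are 4 of the 51 genes (7.84%), where 98 of 3776 genes of all kinds (2.6%) were higher in all 3 classes. The 3 contrasts share their mice, so they do not stand for independent repeats. No splicing gene of the set was lower in all 3, while 507 genes (13.4%) of all kinds were. Srsf9, a small SR protein, had 59.2 and 103 CPM in DP-like cells (0.80, 0.58 to 1.03), 53.1 and 99.7 CPM in DN-like cells (0.91, 0.32 to 1.53) and 79.3 and 129 CPM in post-selection cells (0.71, 0.47 to 0.94). Hnrnpl, the regulator of CD45 exon skipping, had 346 and 544 CPM in DP-like cells (0.65, 0.56 to 0.75), 245 and 363 CPM in DN-like cells (0.57, 0.29 to 0.85) and 319 and 475 CPM in post-selection cells (0.57, 0.45 to 0.69). The call of Hnrnpl in DN-like cells was lost, at -0.02, when each cell was thinned to 1000 UMIs.

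**Figure D2:**
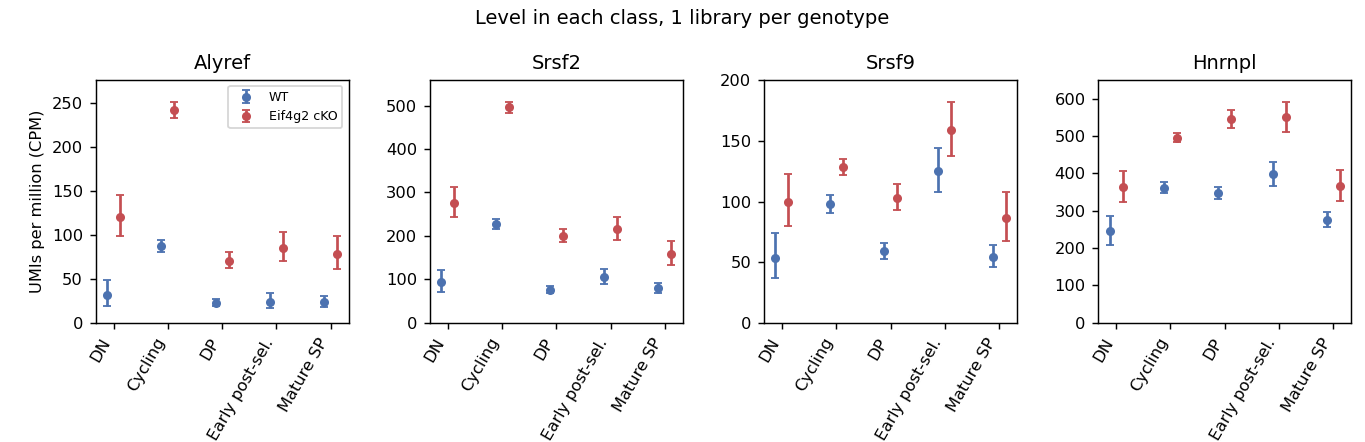
Level of Alyref, Srsf2, Srsf9 and Hnrnpl in CPM (vertical, from 0) in 5 cell classes (horizontal), in the WT library (blue) and the Eif4g2 cKO library (red); points are class totals and bars exact 95% Poisson intervals. The red point is above the blue one in all 20 pairs, and both Alyref and Srsf2 are highest in Cycling-like cells.

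These 4 genes are single loci on 3 chromosomes of GRCm38. Alyref lies at chr11:120592121-120598365 and Srsf2 at chr11:116849901-116853094, both on the minus strand. Srsf9 lies at chr5:115327177-115333080 and Hnrnpl at chr7:28808541-28822266, both on the plus strand. RefSeq promoter windows of GRCm38.p6, from 250 bases before to 50 after a start, were found for 47 of the 53 genes (64 windows). The letters CCAAT or their complement ATTGG stood in 29 of these windows (45.3%) and in 37.8% of all 20260 windows. CCGGAAG or CTTCCGG, the core that ETS factors bind, stood in 22 of the 64 (34.4%) and in 11.9% of all windows. CACGTG stood in 7 (10.9%, against 8.05%), GCGCATGC or its complement in 3 (4.69%, against 3.66%) and AAGATGGCG or its complement in 1 (1.56%, against 1.92%). Both strands were searched, each motif on its own with overlaps between motifs kept, and a match is a description of the letters only. The windows of Alyref, Srsf2 and Hnrnpl held CCAAT and that of Srsf9 held neither CCAAT nor CCGGAAG. They are shown 5′ to 3′ on the gene's strand for the 3 genes with a match, at the CCAAT nearest to the start and at the CCGGAAG nearest to the start of Alyref, with the motif in capitals.
Alyref, chr11:120598436-120598465, minus strand: gcgcgcgcccagaCCAATcgccgctcgctt
Alyref, chr11:120598385-120598414, minus strand: cagggggaggcgCCGGAAGtgacgccgcgg
Srsf2, chr11:116853160-116853189, minus strand: acggccgaatgggCCAATcaggagattcat
Hnrnpl, chr7:28810760-28810789, plus strand: gcatgcgtcctatCCAATagaaatgaaccg
The RefSeq start of Hnrnpl used here lies inside the GENCODE span given above, which begins further upstream. The CCAAT of these windows ended 83 bases before the RefSeq start in Alyref, 78 in Srsf2 and 113 in Hnrnpl, and the CCGGAAG of Alyref ended 31 bases before it. Of the 17 genes of the set with CCGGAAG, Alyref was the only one among the 4 above.

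Among the SR genes, 2 of 10 (20%) were called higher in DP-like cells, Srsf2 and Srsf9, against 8.36% of all genes. None was called lower, against 29.5% of all genes, and the other ratios spanned both directions. The abundant members Srsf3, Srsf5 and Srsf7 had log2 ratios of 0.40 (337 and 444 CPM), 0.23 (745 and 872 CPM) and 0.43 (230 and 309 CPM) in DP-like cells, all within the threshold. Srsf10, which acts as a splicing repressor when dephosphorylated, and Srsf11 lay on the other side. Srsf10 had 102 CPM in WT against 73.7 CPM in Eif4g2 cKO DP-like cells (-0.46, -0.68 to -0.25). Srsf11 had 473 and 397 CPM (-0.25, -0.35 to -0.16), and was called lower in Cycling-like cells at 336 and 229 CPM (-0.56, -0.64 to -0.48) and in Mature SP-like cells at 320 and 201 CPM (-0.67, -0.91 to -0.43). With ratios centred on the median of all genes, no gene of the set was lower in Cycling-like or post-selection cells, and Srsf11 had 0.02 within Cycling-like cluster 5. The SR family was thus not shifted as a block. Its summed log2 ratio was 0.24 in DP-like, 0.36 in DN-like and 0.21 in post-selection cells.

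The hnRNP genes had a median log2 ratio of 0.11 in DP-like cells over 20 genes, with Hnrnpl and Hnrnpab called higher and 0 lower. That is 10% higher, near the 8.36% of all genes, while 29.5% of all genes were lower. Hnrnpab, an RNA-binding protein of the A/B group, had 412 CPM in WT against 599 CPM in Eif4g2 cKO DP-like cells (0.54, 0.45 to 0.63), with 0.24 within DP-like cluster 0 and 0.45 within cluster 1, both under the threshold. Its ratio was larger in Mature SP-like cells, at 355 and 650 CPM (0.87, 0.72 to 1.02). Hnrnpa2b1 and Hnrnpa3, which encode abundant A/B type packaging proteins, had 0.24 (1029 and 1214 CPM) and 0.19 (600 and 684 CPM) in DP-like cells. Their ratios were within the threshold in all 5 classes. At the low end, Hnrnpul1 had 167 and 122 CPM (-0.45, -0.62 to -0.28) and Hnrnph2 had 115 and 89.6 CPM (-0.36, -0.56 to -0.17). Hnrnph2, whose product binds G-rich runs, was called lower in DN-like cells at 90.6 and 50.4 CPM (-0.85, -1.44 to -0.25) and in Mature SP-like cells at 75.5 and 48.3 CPM (-0.64, -1.16 to -0.16). Hnrnph2 lies on the X chromosome, and sex cannot be told apart from genotype in its ratios. The second gene called lower in DN-like cells was the related Hnrnph3, at 76.5 and 50.4 CPM (-0.60), with an interval that reached 0.02.

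The SF3 genes held both directions within 1 complex. None of 9 was called in DP-like cells, where their summed log2 ratio was 0.08 (0.03 to 0.14). Of all genes, 8.36% were higher and 29.5% lower there. Sf3b6, which encodes the p14 subunit that contacts the branch site, was higher in DN-like cells at 220 and 391 CPM (0.83, 0.54 to 1.12) and in post-selection cells at 243 and 398 CPM (0.71, 0.58 to 0.84), and had 275 and 383 CPM in DP-like cells (0.48, 0.37 to 0.59). Its value in post-selection cells was -0.02 when cells with any UMI of the 10 cycling markers were left out. Sf3b4 had 54.6 and 97.4 CPM in DN-like cells (0.83, 0.25 to 1.44) and a ratio of 0.37 in DP-like cells. Sf3b1, the large scaffold subunit that clamps the branch site adenosine, ran the other way, with 310 CPM in WT against 211 CPM in Eif4g2 cKO post-selection cells (-0.55, -0.71 to -0.40) and 292 and 171 CPM in Mature SP-like cells (-0.77, -1.03 to -0.51). The call in post-selection cells was lost when ratios were centred on the median of all genes. In DP-like cells it had 351 and 304 CPM (-0.21), and in DN-like cells 176 and 170 CPM (-0.06, -0.42 to 0.31). Sf3b5 and Sf3b2 had 0.26 and -0.28 in DP-like cells.

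In DP-like cells the Snrp genes had the highest summed ratio of the 4 families. There 5 of 11 (45.5%) were higher and 0 lower, against 8.36% and 29.5% of all genes. The Snrp sum was 2914 CPM in WT against 3919 CPM in Eif4g2 cKO (0.43, 0.39 to 0.46). Snrpd1, Snrpe and Snrpf, which encode proteins of the Sm ring, had 135 and 216 CPM (0.68, 0.53 to 0.83), 340 and 530 CPM (0.64, 0.55 to 0.73) and 322 and 489 CPM (0.60, 0.50 to 0.70). The U1 protein gene Snrpc and the U2 protein gene Snrpa1 were the other 2, at 0.54 and 0.52. Snrpg and Snrpd2, also of the Sm ring, had only 0.25 and 0.19. In DN-like cells 2 of 11 Snrp genes (18.2%) were called higher, against 10.1% of all genes. These were Snrpe at 493 and 872 CPM (0.82, 0.63 to 1.02) and Snrpb2 at 103 and 156 CPM (0.60, 0.16 to 1.04). In post-selection cells 1 of 11 (9.09%) was higher, Snrpc, near the 8.59% of all genes.

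Cycling markers were also higher in DP-like and DN-like cells of Eif4g2 cKO. In DP-like cells the 10 cycling markers summed to 874 CPM in WT against 1250 CPM in Eif4g2 cKO, and 7 of the 9 with enough UMIs were higher. In DN-like cells the sums were 2949 and 3628 CPM (4 of 10 higher). They were 1626 and 1751 CPM in post-selection cells (1 of 10 higher and 1 lower). In Cycling-like cells they were 10853 and 11543 CPM (0 of 10 higher and 0 lower). When the 1171 WT and 478 Eif4g2 cKO DP-like cells with no UMI of any of these markers were used alone, 10 of 51 genes were again higher and the summed log2 ratio was 0.25. Alyref had 1.71 and Srsf2 1.42 in those cells. Neither the share of all genes nor the Snrp sum is given for those cells, and the part of cycling in the Snrp ratios was not tested.

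Within the single DP-like clusters the Snrp shift was smaller, while Alyref, Srsf2 and Hnrnpl stayed past the threshold in both. The Snrp sum had a log2 ratio of 0.09 (0.00 to 0.18) in DP-like cluster 0 and 0.20 (0.11 to 0.29) in cluster 1, against 0.43 for the class. For all 53 genes the values were 0.14 (0.10 to 0.18) and 0.18 (0.14 to 0.23), against 0.26 for the class, with 6 genes higher in cluster 0 and 9 higher and 1 lower in cluster 1. The share of all genes past the threshold is not given for single clusters, so these counts have no background beside them. Alyref had 1.48 (0.77 to 2.14) and 1.30 (0.35 to 2.45), Srsf2 1.16 and 1.65, and Hnrnpl 0.58 and 0.91. Srsf9 had 0.76 in cluster 0 and 0.36 (-0.23 to 1.01) in cluster 1, and Snrpd1 had 0.74 in cluster 0 and 0.11 (-0.27 to 0.50) in cluster 1. Snrpe ran the other way, with 0.17 in cluster 0 and 0.67 in cluster 1. Snrpf (0.35 and 0.27) and Snrpa1 (0.40 and -0.11) were under the threshold in both clusters, and Snrpc (0.07 and 0.87) in cluster 0. Over the 9 T-lineage clusters Alyref ranged from 1.15 in cluster 4 to 2.43 in cluster 6, with an interval above 0 in all but the 54 WT and 14 Eif4g2 cKO cells of the NKT or gamma delta T-like cluster (1.81, -0.41 to 4.14).

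**Figure D3:**
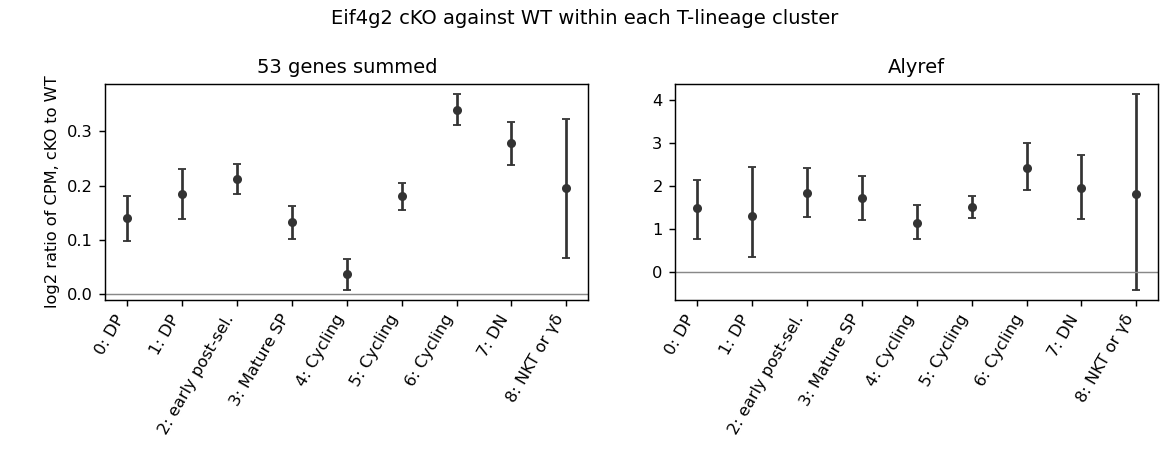
Log2 ratio of CPM, Eif4g2 cKO to WT (vertical), within each of the 9 T-lineage clusters (horizontal), for the sum of the 53 genes (left) and for Alyref (right, own scale); bars are exact 95% intervals for counting error. The sum lies between 0.04 in cluster 4 and 0.34 in cluster 6, and Alyref lies above 1 in every cluster.

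Cells outside the T lineage gave a small comparison. Antigen-presenting-like cells, 62 in WT and 25 in Eif4g2 cKO, had 11374 and 10245 CPM of the 53 genes in sum, a log2 ratio of -0.15 (-0.28 to -0.02). Alyref had 13 and 4 UMIs there (63.7 and 69.6 CPM), with a log2 ratio of 0.13 and an interval from -1.95 to 1.82. Srsf2 had 20 and 5 UMIs (98.0 and 87.0 CPM; -0.17, -1.94 to 1.28). With 4 and 5 UMIs in Eif4g2 cKO, both intervals were wide. That of Alyref held its ratios in DP-like (1.63), Cycling-like (1.48) and post-selection cells (1.79), but not that in DN-like cells (1.95). That of Srsf2 held its ratios in Cycling-like and post-selection cells and ended below those in DP-like and DN-like cells.

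Along development, the set was highest in dividing cells in both libraries. Relative to DP-like cells of the same library, Cycling-like cells had a summed log2 ratio of 0.66 in WT and 0.55 in Eif4g2 cKO, with 25 and 20 of 51 genes higher (17.2% and 14.8% of all genes) and 3 and 5 lower (53.2% and 56.4%). The Snrp genes made the largest step, with 10 of 11 higher in WT and 8 of 11 in Eif4g2 cKO and sums that stood 1.23 (1.20 to 1.25) and 1.01 (0.98 to 1.04) above DP-like cells. Snrpd1 went from 135 to 622 CPM in WT (2.21) and from 216 to 859 CPM in Eif4g2 cKO (1.99). Alyref stood 1.93 (1.65 to 2.22) and 1.78 (1.59 to 1.97) above its DP-like level, and Srsf2 1.57 and 1.31. Srsf5, Hnrnph2 and Hnrnph3 were lower in Cycling-like cells of both libraries, and Sf3b1 and Srsf11 in Eif4g2 cKO. Srsf5 had the lowest ratio, at 745 CPM in DP-like and 311 CPM in Cycling-like cells of WT (-1.26) and 872 and 273 CPM in Eif4g2 cKO (-1.68).

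DN-like cells had nearly the same summed level as DP-like cells, at 0.04 in WT and 0.06 in Eif4g2 cKO, but with the families apart. The Snrp sum stood 0.71 above the DP-like level in WT and 0.61 in Eif4g2 cKO, and the SR sum stood 0.48 and 0.36 below it (-0.48 and -0.36). Of 51 genes 7 were higher and 10 lower in each library, against 14.7% and 52.1% of all genes in WT and 12.1% and 54% in Eif4g2 cKO. Thinning to 1000 UMIs turned the 2 sums to -0.05 and -0.10. Early post-selection-like cells had sums of 0.18 and 0.13 over DP-like cells, with 6 genes higher and 2 lower in WT (12.1% and 25.4% of all genes) and 3 and 2 in Eif4g2 cKO (8.94% and 29%). Srsf9 had the highest ratio in WT and, after Hnrnpd (0.73), the next in Eif4g2 cKO, at 59.2 and 125 CPM in WT (1.08, 0.81 to 1.34) and 103 and 159 CPM in Eif4g2 cKO (0.62, 0.37 to 0.87).

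In Mature SP-like cells the sums were lower than in DP-like cells, at -0.08 in WT and -0.21 in Eif4g2 cKO. In WT 4 genes were higher and 9 lower (13.2% and 48.2% of all genes), and in Eif4g2 cKO 0 were higher and 14 lower (8.03% and 52.6%). The 4 higher in WT were Sm ring genes, and the Sm ring sum stood 0.50 above the DP-like level in WT and 0.20 in Eif4g2 cKO. Hnrnpll, the inducible CD45 exon repressor, was far lower, at 77.9 CPM in DP-like and 27.5 CPM in Mature SP-like cells of WT (-1.5, -1.88 to -1.14) and 68.3 and 21.9 CPM in Eif4g2 cKO (-1.64, -2.40 to -0.97). Hnrnph3 was at -1.44 and -1.53 and Srsf5 at -1.09 and -1.18. These stage patterns were alike in direction in both mice, although clusters of 1 library are not replicates of a stage.

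**Figure D4:**
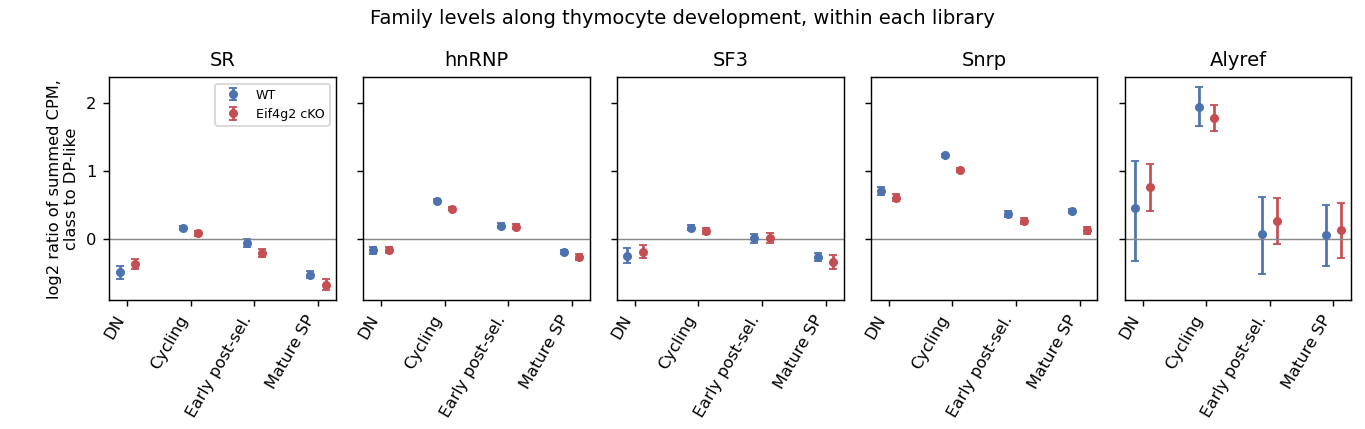
Log2 ratio of summed CPM of each family in 4 classes (horizontal) to DP-like cells of the same library (vertical), in WT (blue) and Eif4g2 cKO (red); bars are exact 95% intervals for counting error. Cycling-like cells stand highest in each panel, by 1.23 and 1.01 for Snrp and by 1.93 and 1.78 for Alyref.

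Per cell, the 53 genes made up a median of 1.22% of UMIs in WT and 1.5% in Eif4g2 cKO DP-like cells, and 1.93% and 2.18% in Cycling-like cells. The 10th and 90th percentiles in DP-like cells were 0.770% and 1.77% in WT and 1.05% and 2.02% in Eif4g2 cKO, so that the distributions overlapped widely. In 1000 UMIs, the median DP-like cell had 10 of the 53 genes with a UMI in WT and 12 in Eif4g2 cKO.

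The ratios also varied with the length of a gene in the genome. In DP-like cells, the median log2 ratio of all genes was 0.20 for genes that span up to 5 kb, 0.05 for 5 to 20 kb, -0.31 for 20 to 100 kb and -0.76 for over 100 kb. Of the 51 genes with enough UMIs, 4, 33, 14 and 0 lay in these bins. Their medians were 0.22, 0.38 and -0.03 in the first 3, against 0.20, 0.05 and -0.31 for all genes of the same bins. Genes of the set that span 20 to 100 kb had the lowest median of the 3 bins, and the part of span in the ratios was not tested. Srsf2 spans 3.19 kb, Srsf9 5.90 kb, Alyref 6.25 kb and Hnrnpl 13.7 kb, while Sf3b1 spans 42.3 kb.

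**Figure D5:**
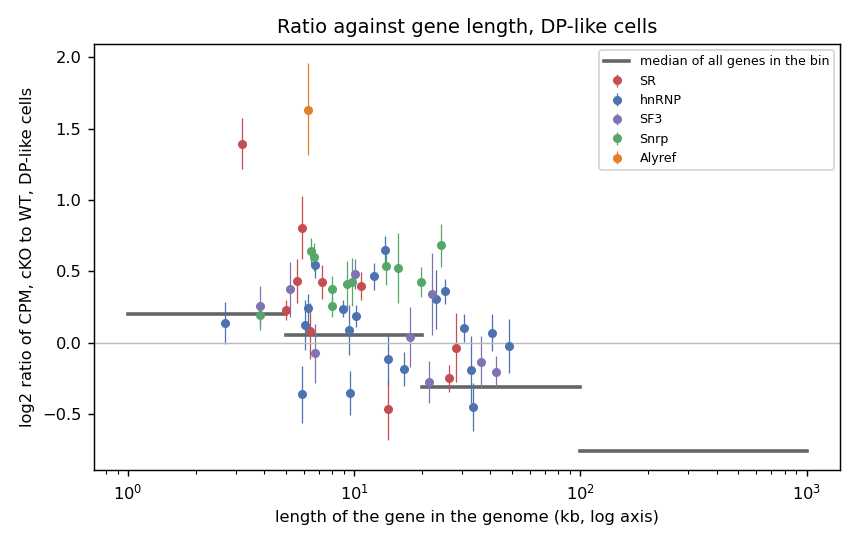
Log2 ratio of CPM, Eif4g2 cKO to WT, in DP-like cells (vertical) against the length of the gene in the genome in kb (horizontal, log axis); points are the 51 genes with exact 95% intervals, coloured by family, and grey lines the medians of all genes in 4 bins of length, the outer 2 of which have no outer limit. Most points of 5 to 20 kb lie above the grey line at 0.05, and Alyref and Srsf2 stand above all others.

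Other genes of splicing and mRNA export, from 4 lists, had medians nearer to that of all genes. Of 44 core spliceosome genes with enough UMIs in DP-like cells 6 were higher and 8 lower, of 22 SR-related proteins and SR kinases 1 and 3, of 24 other splicing regulators 2 and 4, and of 21 exon junction complex and export genes 3 and 1, where 8.36% of all genes were higher and 29.5% lower. Their medians were -0.18, -0.27, -0.09 and 0.01, against 0.24 for the 51 genes and -0.19 for all genes.

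Of the 92 genes of these lists with enough UMIs in DN-like, DP-like and post-selection cells, 8 (8.7%) were higher in all 3 classes and 4 (4.35%) lower, against 2.6% and 13.4% of all genes. The higher ones included small factors that work beside Alyref and the Sm ring. Magoh, a core subunit of the exon junction complex, had 101 CPM in WT against 190 CPM in Eif4g2 cKO DP-like cells (0.90, 0.74 to 1.07). Lsm6 and Lsm5, which belong to the Sm-like ring of the U6 particle, had 0.82 (96.1 and 170 CPM) and 0.66 (87.6 and 139 CPM). Sap18, of the ASAP complex, had 0.72, Pcbp1, a poly(C)-binding protein, had 0.67, and Nono, a paraspeckle protein, had 0.65. On the low side, Mbnl2, a muscleblind splicing regulator, had 427 and 199 CPM (-1.10, -1.22 to -0.98). Prpf38b, Dhx8, a helicase that releases spliced mRNA, and Thoc2, a subunit of the TREX complex that Alyref joins, had -0.71, -0.68 and -0.63. Alyref and Thoc2, partners in mRNA export, differed in opposite directions in these libraries. Thoc2 was the 1 gene lower of the 21 exon junction complex and export genes in DP-like cells, where 3 were higher and the median was 0.01.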

How the data were processed

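Thymus cells of 1 WT and 1 Eif4g2 cKO mouse were captured on the DNBelab C4 system. The authors ran dnbc4tools and deposited UMI counts per gene and cell, without normalization. The submitters' processing notes name mm10, and the aligner and the use of strand are not given in the sources used here. The oligo libraries share the library names, and the tables were read as cDNA. Of 21926 gene identifiers, 21379 (97.5%) and all 53 of the set match GENCODE M21 (GRCm38) with their version. Reads shared with processed pseudogenes could not be traced. Cells with at least 50 genes and at most 10% mitochondrial UMIs were kept, which removed 2 WT cells. No doublets were called, and 264 WT and 419 Eif4g2 cKO cells had over 10000 UMIs.

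For clustering, scanpy 1.11.5 brought each cell to 10000 UMIs on a log scale. A shared-neighbour graph (2000 variable genes, 30 components, 20 neighbours) was clustered by the Leiden method at a resolution of 1.0, on all cells and then on T-lineage cells. UMIs were summed by class and library and given as CPM with Poisson intervals, and ratios with conditional binomial intervals. The ratios and their intervals were tested on simulated library totals, while clustering, class naming and thinning were not. The genes, the lists and the rule for named genes (in each family the 3 with most UMIs, the 2 highest and 2 lowest ratios in DP-like cells, and genes called alike in 3 classes) were chosen with earlier results of these data known. Hnrnpd, Hnrnph3, Hnrnpll, Snrpc, Snrpa1 and Snrpb2 were named after their values were seen.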

Additional observations from a re-analysis of the deposited data

How the results depend on the processing

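No paired analysis was possible because each genotype had 1 library, and for the same reason no library could be left out. Of 160 planned summary values 108 kept within the limits set for a change and 52 moved, as did 20 of 36 chosen after seeing the data. The sums of DN-like over DP-like cells turned from above to below 0 in both libraries when thinned, and the median in Cycling-like cells did so in cluster 4. Values are given in the order whole libraries, DN-like, Cycling-like, DP-like and post-selection where 5 are listed. Shares of all genes are not given for the settings of this section, so its counts of genes have no background beside them. With ratios centred on the median of all genes, 34, 18, 16, 22 and 20 genes were higher and summed log2 ratios were 0.67, 0.38, 0.43, 0.45 and 0.43. Medians were 0.61 in whole libraries, 0.36 in Cycling-like, 0.43 in DP-like and 0.42 in post-selection cells, and 0 genes were lower in Cycling-like and post-selection cells. Without mitochondrial and ribosomal protein genes in the totals, 21, 18, 10, 18 and 17 genes were higher, summed ratios were 0.48, 0.38, 0.26, 0.38 and 0.34, medians were 0.42 in whole libraries, 0.20 in Cycling-like and 0.36 in DP-like cells, and 0 were lower in Cycling-like and post-selection cells.

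With 1000 to 10000 UMIs and at most 3% mitochondrial UMIs per cell, the summed ratio was 0.38 in whole libraries and 0.21 in Cycling-like cells, where 8 genes were higher and 2 lower, and 0 were lower in post-selection cells. At a minimum of 200 UMIs 0 genes were lower in DN-like cells. Thinned to 1000 UMIs per cell, 1 gene was lower in DN-like (sum 0.23), 8 higher and 3 lower in Cycling-like (sum 0.19), 1 lower in DP-like (sum 0.28) and 2 lower in post-selection cells. Against DP-like cells, thinned sums were -0.0515 (DN-like), 0.63 (Cycling-like) and -0.12 (Mature SP-like) in WT, and -0.10 (DN-like) and -0.31 (Mature SP-like) in Eif4g2 cKO. With each library clustered alone, the DP-like sum was 0.23 and 2 genes were lower in post-selection cells.

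Chosen after seeing the data, DP-like cluster 0 alone gave 6 higher and a sum of 0.14, and cluster 1 gave 1 lower and 0.18. Cycling-like cluster 4 gave 0 lower, a median of -0.00094 and a sum of 0.0356, cluster 5 gave 6 higher, 0 lower and 0.18, and cluster 6 gave 16 higher, 2 lower, a median of 0.21 and a sum of 0.34. Early post-selection-like cells alone gave 2 lower and 0.21, Mature SP-like cells 4 lower and 0.13, and post-selection cells with no UMI of a cycling marker 4 lower and 0.29. Single genes that turned direction were Hnrnpl (-0.0248) and Srsf3 (-0.0539) in thinned DN-like cells, Srsf11 (0.0239) in Cycling-like cluster 5 and Sf3b6 (-0.0178) in post-selection cells with no UMI of a cycling marker. The cause was not tested.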
